A study of Mus musculus with 4 samples.

Results

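The genes of the inflammasome and of the interleukin 1 family were described in liver RNA of 4 mice, all C57BL/6J males at an age of 18 weeks. The 10 genes were chosen by symbol and all were in the table, out of 24138 rows. They are the sensors Nlrp3, Nlrp6 and Aim2, the adaptor Pycard, the inflammatory caspases Casp1 and Casp4, the pore former Gsdmd, the cytokines Il1b and Il18, and the interleukin 18 inhibitor Il18bp. All 4 animals were fed the FAT-MASH diet, where MASH is fatty liver disease with inflammation linked to metabolic dysfunction, and were treated with RvD1 (resolvin D1), a fatty acid derivative that limits inflammatory responses. The dose, route and duration of RvD1 and the duration of the diet are not given in the sources used here. There is 1 group, and its livers carry their label numbers, 1 to 4. No liver without the diet or without RvD1 was analysed here, so the values describe levels and the spread between treated animals, and no effect of either can be read from them.

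An inflammasome is a protein complex that forms when a sensor of the NLR or AIM2-like type detects a danger or microbial signal and recruits caspase-1, in most cases through the adaptor ASC, the product of Pycard. Caspase-1 cleaves the precursors of interleukin 1 beta and interleukin 18 into active cytokines and cleaves gasdermin D, whose fragment forms pores in the plasma membrane. Caspase-11, encoded by mouse Casp4, is activated by cytosolic lipopolysaccharide and also cleaves gasdermin D. Activity is set largely by protein assembly and cleavage, which transcript levels do not measure. In liver these genes are known from Kupffer cells, infiltrating myeloid cells and, for some members, epithelial cells. In whole liver, fewer cells of a type and less RNA per cell cannot be told apart.

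Of the genes highest in liver 2 (Il1b, Aim2 and Il18bp) and lowest there (Nlrp6, Pycard and Nlrp3), the sequences upstream of 4 are shown as examples, 2 from each side. Promoter sequences of RefSeq (GRCm38.p6) were matched by symbol for 9 of the 10 genes. Each line gives the 250 bases before the start site, 5′ to 3′ on the strand of the gene. Capitals mark matches to any of 8 motifs on either strand. The TATA box was searched as TATAAA, the PU.1 motif as GAGGAA, the core of the HNF1 motif as GTTAAT, the C/EBP motif as TTGCNNAA and the gamma-activated sequence as TTCNNNGAA. The AP-1 motif was searched as TGANTCA, and the interferon-stimulated response element and the NF-kB motif were searched too.
Il1b: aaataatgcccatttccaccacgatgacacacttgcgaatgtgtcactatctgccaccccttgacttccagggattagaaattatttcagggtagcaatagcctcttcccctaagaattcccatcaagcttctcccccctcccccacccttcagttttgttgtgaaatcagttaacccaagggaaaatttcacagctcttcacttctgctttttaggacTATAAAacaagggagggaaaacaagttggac
Aim2: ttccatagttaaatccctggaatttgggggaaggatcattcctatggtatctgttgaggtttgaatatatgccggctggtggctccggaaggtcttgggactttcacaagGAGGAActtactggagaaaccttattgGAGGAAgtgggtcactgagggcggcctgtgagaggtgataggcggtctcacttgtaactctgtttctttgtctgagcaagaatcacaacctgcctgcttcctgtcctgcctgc
Nlrp6: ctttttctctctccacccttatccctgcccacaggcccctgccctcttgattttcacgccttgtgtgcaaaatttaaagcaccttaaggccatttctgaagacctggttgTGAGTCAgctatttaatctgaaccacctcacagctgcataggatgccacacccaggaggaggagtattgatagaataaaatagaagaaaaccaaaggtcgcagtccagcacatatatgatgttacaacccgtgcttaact
Pycard: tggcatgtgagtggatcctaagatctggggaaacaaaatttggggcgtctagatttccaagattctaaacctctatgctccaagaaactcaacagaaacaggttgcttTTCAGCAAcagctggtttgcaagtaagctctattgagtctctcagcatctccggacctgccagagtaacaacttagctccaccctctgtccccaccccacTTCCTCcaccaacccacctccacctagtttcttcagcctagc

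The Il1b window (chr2:129371140-129371389, minus strand) held 1 match, a TATA box starting 31 bases before the start site. A TATA box match was present in 12.4% of 32851 windows of the same length over all RefSeq start sites in the table. The Aim2 window (chr1:173420354-173420603, plus strand) held 2 PU.1 matches, which start 140 and 113 bases before the start site, and 23.3% of all windows held at least 1. The Nlrp6 window (chr7:140920652-140920901, plus strand) held 1 AP-1 match, 140 bases before the start site, a motif found in 6.75% of windows. The Pycard window (chr7:127993868-127994117, minus strand) held a C/EBP match 142 bases and a PU.1 match 42 bases before the start site, and a C/EBP match was found in 9.56% of windows. No match overlapped another in these 4 windows. Of the genes not shown, Il18bp had 1 C/EBP match, 49 bases before its start site, and Nlrp3 had 3 PU.1 matches (220, 129 and 36 bases) in 1 of its 2 windows and no match in the other. A match describes the letters of the reference and is not evidence that a factor was bound.

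Depth was approximated from low FPKM values (fragments scaled by transcript length and by library size) of 2794 coding genes with a single annotated transcript. Each value was multiplied by the transcript length less 200 bases. Only products between 25 and 75 were used, 62 to 107 values a library. Each library was estimated to hold between 18.4 and 19.5 M fragments (M, mega). On this estimate 1 fragment on about 1 kb was worth between 0.0512 and 0.0544 FPKM. The fixed window limits what the estimate can give and was not varied, so whether the depths are alike cannot be read from it. The labelled tissue was checked against 8 hepatocyte markers, all of which were above 1 FPKM, with summed levels between 46284 and 55784 FPKM. Alb and Apoe, both abundant in hepatocytes, were listed at 0 in all 4 livers, so a listed 0 in this table can be a failed estimate. Liver 2 stood apart in the acute phase response, the liver's secreted answer to inflammatory cytokines: 14 of 18 acute phase genes had their highest value there, beside 24.0% of all genes above 0 in every liver, and the other 4 (Fgb, Steap4, Cxcl1 and Socs3) had theirs in liver 4. The sizes varied widely. Saa1, a serum amyloid A gene, was at 2135 FPKM in liver 2 and at 45.6 to 139 FPKM elsewhere, and Lcn2, which encodes an iron-sequestering protein, was at 714 FPKM and at 55.4 to 114 FPKM, whereas the fibrinogen genes Fga, Fgb and Fgg spanned 1.28-fold, 1.27-fold and 1.31-fold over the livers. Means and fold ranges of the 6 members highest or lowest in liver 2 are therefore also given without it.

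The 10 genes covered a wide range of levels. All 10 were above 0 in all 4 livers, and 6 of the 10 had a mean of at least 1 FPKM, beside 43.7% of all rows. In order of mean level they were Nlrp6, Gsdmd, Il18bp, Il18, Casp1, Casp4, Aim2, Il1b, Pycard and Nlrp3. Of the 9 pairs of neighbours in this order, 4 did not overlap in range over the livers: Nlrp6 above Gsdmd, Gsdmd above Il18bp, Il18 above Casp1, and Pycard above Nlrp3. Il18bp and Il18 overlapped, as did Casp1 with Casp4 and each of the neighbours from Casp4 down to Pycard. With 4 livers, neighbours were compared by their ranges and not by a test.

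**Figure D1:**
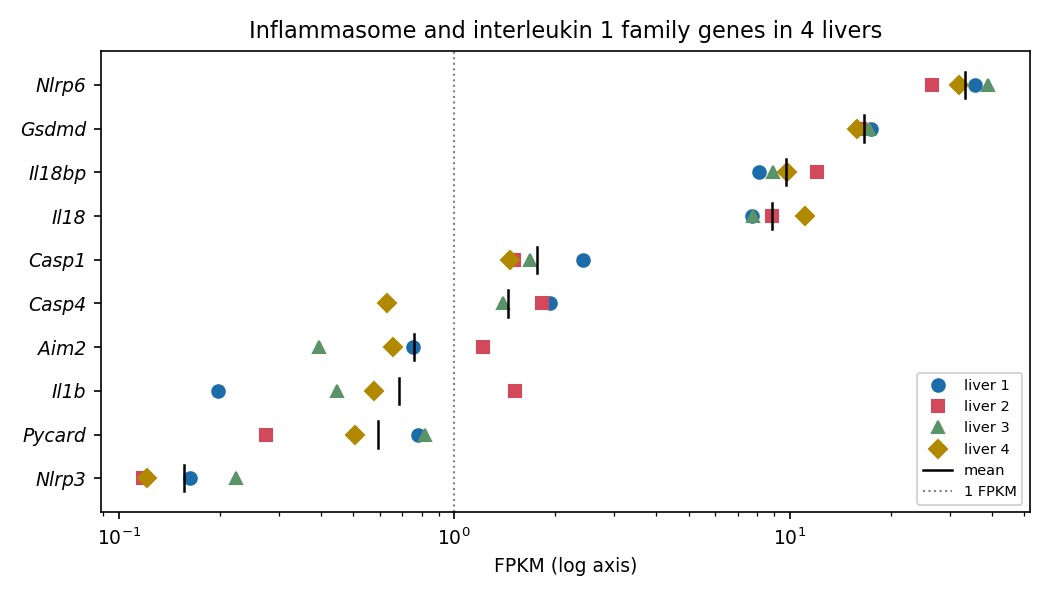
FPKM of the 10 genes on a log axis, 1 symbol per liver and a black bar for the mean of 4 livers; the dotted line is 1 FPKM. Nlrp6 lies at 26.6 to 38.9 FPKM and Nlrp3 at 0.118 to 0.223 FPKM, while Casp4, Aim2, Il1b and Pycard overlap each other.

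Among the sensors, Nlrp6 was by far the most abundant transcript. Nlrp6, an NLR protein studied mostly in epithelial cells, was at 35.6, 26.6, 38.9 and 31.9 FPKM in livers 1 to 4, a mean of 33.3 ± 5.27 FPKM (SD, n = 4). Liver 2 was the lowest and liver 3 the highest, a 1.46-fold range, and without liver 2 the mean was 35.5 FPKM and the range 1.22-fold. The gene (XLOC_019274) spans chromosome 7, 140920902 to 140929192, in mm10, and 92.0% of all rows had a lower mean.

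Nlrp3, the sensor of membrane damage and crystals that is best known from macrophages, was at 0.163, 0.118, 0.223 and 0.122 FPKM in livers 1 to 4, a mean of 0.157 ± 0.0488 FPKM (SD, n = 4). Liver 3 was the highest, and livers 2 and 4 were nearly equal, a 1.89-fold range. Without liver 2 the mean was 0.169 FPKM and the range 1.83-fold. On the longest of its 3 coding transcripts (4021 bases) these values correspond to about 12, 9, 16 and 9 fragments, and on the shortest (676 bases) to about 2, 1, 2 and 1, so differences between livers rest on few reads. Nlrp3 (XLOC_002723) spans chromosome 11, 59542686 to 59566956. Per length, Nlrp6 exceeded Nlrp3 174-fold to 262-fold within a liver.

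Aim2, which binds cytosolic DNA, was at 0.755, 1.22, 0.394 and 0.658 FPKM in livers 1 to 4, a mean of 0.757 ± 0.345 FPKM (SD, n = 4). Liver 2 was the highest and liver 3 the lowest, a 3.10-fold range. Without liver 2 the mean was 0.603 FPKM and the range 1.92-fold, and without liver 3 the range was 1.85-fold. The 4 annotated coding transcripts of Aim2 run from 326 to 2839 bases, so the fragments behind the value of liver 3 could number from about 1 to about 20. Aim2 (XLOC_000568) spans chromosome 1, 173420604 to 173466036.

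The other sensors were examined as a list of 15 genes, all in the table, of which 5 had a mean of at least 1 FPKM. Nlrp12, an NLR protein that restrains inflammatory signalling, had 5.39 ± 0.942 FPKM, and the mitochondrial NLR protein Nlrx1 had 4.69 ± 0.558 FPKM (each SD, n = 4). Nod1, a sensor of bacterial peptidoglycan, had 3.37 ± 0.163 FPKM, Naip2 1.95 ± 0.266 FPKM and Nlrc5, an activator of MHC class I genes, 1.90 ± 0.310 FPKM (each SD, n = 4). Nlrc4, the partner of the NAIP proteins in an inflammasome, had 0.0894 ± 0.0387 FPKM, and Nlrp1b, the sensor of anthrax lethal toxin, had 0.113 ± 0.0299 FPKM (each SD, n = 4). Nlrp3, Nlrc4 and Nlrp1b therefore all had means below 0.2 FPKM, where Nlrp6, Nlrp12, Nlrx1 and Nod1 had means above 3 FPKM. Mefv, which encodes pyrin, had 0.231 FPKM in liver 1, and the others lay between 0.0141 and 0.0863 FPKM.

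The adaptor Pycard was at 0.781, 0.275, 0.818 and 0.505 FPKM in livers 1 to 4, a mean of 0.595 ± 0.255 FPKM (SD, n = 4). Livers 1 and 3 were nearly equal and high, and liver 2 was the lowest, a 2.97-fold range. Leaving out liver 2 gave a mean of 0.701 FPKM and a 1.62-fold range. Pycard (XLOC_020350) spans chromosome 7, 127991373 to 127993867, and its coding transcripts of 493 and 3800 bases place the value of liver 2 at between about 2 and 19 fragments. Within a liver Pycard exceeded Nlrp3 by 2.33-fold to 4.78-fold, lowest in liver 2. Casp1 exceeded Pycard in every liver, by 2.06-fold to 5.46-fold, highest in liver 2.

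Both caspase genes were low, highest in liver 1 and lowest in liver 4. Casp1, the protease of canonical inflammasomes, was at 2.43, 1.5, 1.68 and 1.47 FPKM in livers 1 to 4, a mean of 1.77 ± 0.447 FPKM (SD, n = 4). Liver 1 was 1.44-fold above the next liver, and livers 2 and 4 were nearly equal. Casp4 was at 1.93, 1.82, 1.39 and 0.632 FPKM, a mean of 1.45 ± 0.591 FPKM (SD, n = 4). Liver 4 was the lowest, with the next liver 2.2-fold higher, and without it the fold range was 1.39. On the longer of its 2 coding transcripts (1435 bases) the Casp4 values correspond to about 47, 43, 33 and 14 fragments, and on the shorter (361 bases) to about 6, 6, 4 and 2. The adjacent genes Casp1 (XLOC_021650, chromosome 9, 5298517 to 5307281) and Casp4 (XLOC_021651, chromosome 9, 5308849 to 5336791) have separate rows and their spans do not overlap. The ratio of Casp4 to Casp1 was 0.796, 1.21, 0.828 and 0.430 in livers 1 to 4, so Casp4 was the higher of the pair in liver 2 and the lower in the other livers.

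Gsdmd was the steadiest of the 10 genes, at 17.5, 16.2, 17.2 and 15.9 FPKM in livers 1 to 4, a mean of 16.7 ± 0.782 FPKM (SD, n = 4) and a 1.10-fold range. It spans chromosome 15, 75862339 to 75867404 (XLOC_007036). Within a liver Gsdmd exceeded Casp1 by 7.20-fold in liver 1 and by 10.2-fold to 10.8-fold in the others. Gsdmd itself was highest in liver 1, and Casp1 was highest there too, by the larger fold.

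Genes of cell death that act beside or after gasdermin D were examined in a list of 12 symbols, 11 of them in the table. Ninj1, which encodes the protein that ruptures the plasma membrane in lytic death, was the most abundant at 113 ± 16.0 FPKM (SD, n = 4). Casp8, an initiator caspase of death receptor signalling, had 13.2 ± 1.61 FPKM, and the inflammatory caspase gene Casp12, a neighbour of Casp4, had 2.84 ± 0.426 FPKM (each SD, n = 4). The necroptosis effector Mlkl had 3.56 ± 0.883 FPKM, and its activating kinase Ripk3 had 0.598 ± 0.348 FPKM (each SD, n = 4). The gasdermin E gene, given under its older symbol Dfna5, was at 1.12, 1.25, 0.442 and 0.844 FPKM in livers 1 to 4. Gsdma, Gsdmc and Gsdmc2 were listed at 0 in all 4 livers, from which no level can be read.

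Il1b had the widest fold range of the 10 genes over the 4 livers, a rank that it lost to Casp4 (3.06-fold) without liver 2. It was at 0.197, 1.52, 0.446 and 0.577 FPKM in livers 1 to 4, a mean of 0.684 ± 0.577 FPKM (SD, n = 4). Liver 2 was 2.63-fold above the next liver and 7.69-fold above liver 1. On its coding transcript of 1356 bases these values correspond to about 4, 34, 10 and 12 fragments. Without liver 2 the mean was 0.407 FPKM and the fold range 2.93, and without liver 1, which rests on the fewest fragments, the range was 3.40. Il1b (XLOC_012764) has the span chromosome 2, 129364580 to 129375733, which is also that of the antisense gene Il1bos; Il1bos was listed at 0 in livers 1 and 2 and at 0.103 and 0.113 FPKM in livers 3 and 4. The strand setting of the counting is not given in the sources used here.

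Markers of other cells differed between livers too, in more than 1 direction. Liver 2 held the highest value for 24.0% of all genes above 0 in every liver, and liver 4 for 29.9%. Among genes with a mean of 5 to 50 FPKM, liver 4 held it for 1853 of 5127. All rows of liver 4 summed to 570681 FPKM, beside 516816 to 524394 FPKM in the others. Of 9 neutrophil markers, 8 were in the table, and 6 of the 8 had their highest value in liver 2. Among these 6, Retnlg, Mmp8, Mmp9 and Elane had low means of 0.887, 0.0485, 0.127 and 0.298 FPKM, where depth limits the values. Retnlg and Mmp8 were also listed at 0 in some livers. Among genes with a mean of 0.1 to 1 FPKM, 893 of 2949 were highest in liver 2. The summed level of the 8 markers was 10.7, 19.6, 11.8 and 8.87 FPKM in livers 1 to 4. S100a8 and S100a9, which encode the abundant calcium-binding proteins of neutrophils, reached 7.79 and 7.93 FPKM in liver 2, where the other livers had 2.42 to 6.37 FPKM. The other 2 markers went otherwise: Csf3r was highest in liver 3 (1.15 FPKM, beside 0.827 FPKM in liver 2), and the chemokine receptor gene Cxcr2 was lowest in liver 2 (0.0194 FPKM, beside 0.0589 to 0.0725 FPKM). Of 6 stellate cell markers, 4 were highest in liver 2, with summed levels of 233, 295, 191 and 215 FPKM in livers 1 to 4. Of 6 endothelial markers, 4 were highest in liver 2, with sums of 40.4, 51.4, 43.2 and 51.7 FPKM. Of 10 macrophage and monocyte markers, 2 were highest in liver 2 (Adgre1 at 5.97 and Csf1r at 16.1 FPKM) and 5 in liver 4, with sums of 176, 221, 179 and 234 FPKM. Lyz2 made up 94.9 to 135 FPKM of these sums. The 6 Kupffer cell markers were highest in sum in liver 4, at 116, 126, 114 and 144 FPKM. Of these 6, 3 were highest in liver 4, while Timd4 was highest in liver 1, Marco in liver 2 and C6 in liver 3. The 8 hepatocyte markers were lowest in sum in liver 2, at 53985, 46284, 54996 and 55784 FPKM. Apoa2, Cps1 and Ass1 were lowest in liver 2, Apoa2 at 11166 FPKM beside 13518 to 20665 FPKM elsewhere. Ttr and Fabp1 were lowest in liver 3, and Apoa1, Hnf4a and Apoc3 in liver 1. Apoc3 was highest in liver 2. The part of any of these cells in the Il1b values was not tested.

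Il18 was at 7.71, 8.84, 7.77 and 11.1 FPKM in livers 1 to 4, a mean of 8.87 ± 1.60 FPKM (SD, n = 4). Liver 4 was the highest, 1.26-fold above the next, and livers 1 and 3 were nearly equal. Il18 (XLOC_021919) spans chromosome 9, 50565368 to 50581837. Unlike the precursor of interleukin 1 beta, that of interleukin 18 is made constitutively in many cell types. Per length, Il18 exceeded Il1b 39.1-fold, 5.83-fold, 17.4-fold and 19.3-fold in livers 1 to 4. The ratio was lowest in liver 2, where Il1b was highest.

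Il18bp, a secreted protein that binds interleukin 18 and blocks it, was at 8.11, 12.1, 8.91 and 9.81 FPKM in livers 1 to 4, a mean of 9.73 ± 1.71 FPKM (SD, n = 4). Liver 2 was the highest, 1.23-fold above the next. Leaving it out gave a mean of 8.94 FPKM and a range of 1.21-fold in place of 1.49-fold. The ratio of Il18bp to Il18 was 1.05, 1.37, 1.15 and 0.881, so the inhibitor transcript was at or slightly above the cytokine transcript in 3 of 4 livers and below it in liver 4. Il18bp (XLOC_020070) spans chromosome 7, 102015077 to 102018155, and its exons overlap those of Numa1 on the opposite strand. Numa1 was at 9.11, 7.82, 10.9 and 8.12 FPKM, lowest in liver 2 where Il18bp was highest. Ifng, whose product induces Il18bp in many cells, was listed at 0 in all 4 livers.

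The other ligands and the receptors of the family place these cytokines in context. Of 13 ligand and antagonist symbols, which include older and newer names of the same genes, 8 were in the table and 3 had a mean of at least 1 FPKM. Il1a, the gene of the interleukin 1 form that is active without caspase-1, was at 1.62, 1.49, 1.97 and 1.70 FPKM in livers 1 to 4. Il1a exceeded Il1b 8.24-fold, 4.42-fold and 2.95-fold in livers 1, 3 and 4, and the ratio was 0.980 in liver 2. Il1rn, which encodes the receptor antagonist, was at 3.33, 2.26, 1.60 and 2.01 FPKM and exceeded Il1b in every liver, by 16.9-fold in liver 1 and by 1.49-fold in liver 2. Il33, an alarmin of stromal and endothelial cells, had 1.25 ± 0.350 FPKM (SD, n = 4). The genes of the interleukin 36 group were listed at 0 except Il1f9, at 0.116 ± 0.0739 FPKM (SD, n = 4).

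**Figure D2:**
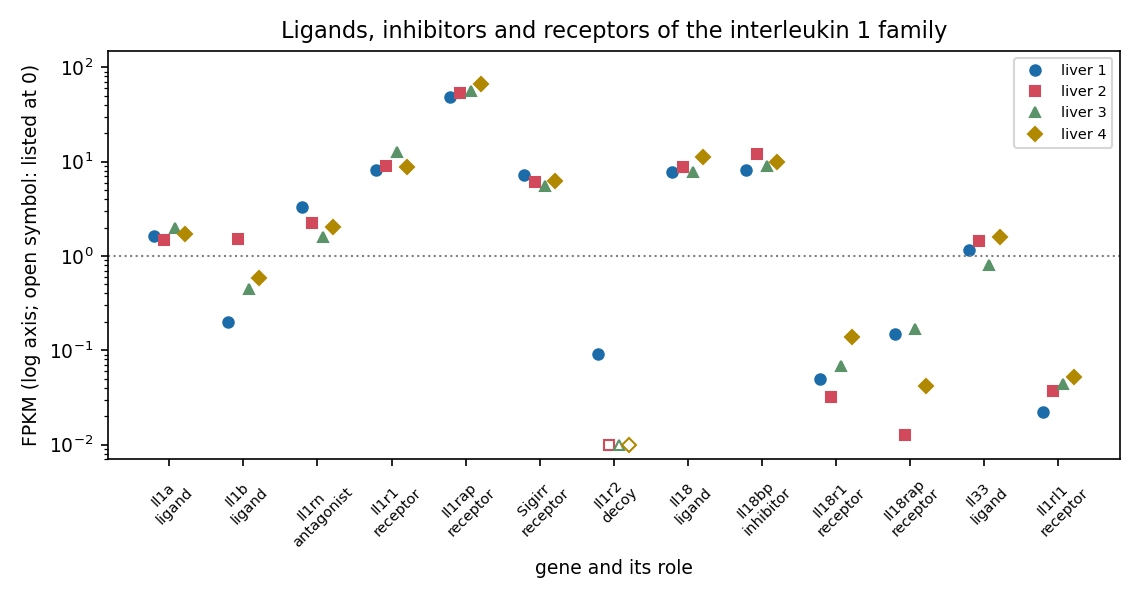
FPKM on a log axis for ligands, inhibitors and receptors of the interleukin 1 family, 1 symbol per liver; open symbols mark a listed 0 and the dotted line is 1 FPKM. Il1rap and Il1r1 lie above 8 FPKM in every liver, whereas Il18r1, Il18rap and Il1rl1 lie below 0.2 FPKM.

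The receptor chains for interleukin 1 were abundant and those for interleukin 18 were near the limit of the depth. Il1r1, the signalling receptor, had 9.61 ± 2.05 FPKM and was highest in liver 3 at 12.6 FPKM, and its co-receptor Il1rap had 56.1 ± 7.37 FPKM (each SD, n = 4). Sigirr, an inhibitory receptor, had 6.24 ± 0.674 FPKM (SD, n = 4). The decoy receptor Il1r2 was at 0.0905 FPKM in liver 1 and listed at 0 in the others. Il18r1 and Il18rap, the chains of the interleukin 18 receptor, which T and NK cells carry, had 0.0720 ± 0.0470 and 0.0924 ± 0.0769 FPKM (each SD, n = 4). The 8 T and NK cell markers had a summed level of 3.91, 4.26, 3.32 and 1.99 FPKM in livers 1 to 4. Il1rl1, the receptor for interleukin 33, had 0.0387 ± 0.0124 FPKM (SD, n = 4). Of the 10 receptor genes, 3 had a mean of at least 1 FPKM and 2, Il1rapl1 and Il1rapl2, were listed at 0.

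Downstream of the receptors, 8 of 9 signalling genes had a mean of at least 1 FPKM. The adaptor Myd88 had 10.3 ± 1.00 FPKM, and the kinases Irak1, Irak2 and Irak4 had 19.9 ± 2.72, 6.30 ± 0.421 and 4.12 ± 0.540 FPKM (each SD, n = 4). The ubiquitin ligase Traf6 had 3.75 ± 0.483 FPKM. Irak3, an inhibitor of this signalling found mainly in myeloid cells, had 0.498 ± 0.0681 FPKM (each SD, n = 4). Among 12 regulators of inflammasome assembly, 9 had a mean of at least 1 FPKM. Txnip, a redox protein reported to bind NLRP3, had 49.8 ± 4.59 FPKM, and Nek7, a kinase that NLRP3 needs for assembly, had 19.7 ± 2.81 FPKM (each SD, n = 4). Nek7 was thus measured far above Nlrp3 itself in every liver. The deubiquitinase gene Brcc3 had 10.3 ± 2.39 FPKM (SD, n = 4). P2rx7, the ATP-gated channel that triggers NLRP3, had 1.05 FPKM in liver 1, and the others lay between 0.504 and 0.619 FPKM. Gbp5, a guanylate-binding protein, had 0.860 FPKM in liver 2, and the others lay between 0.489 and 0.566 FPKM. In all, 65 of 71 symbols of these 6 pathway lists were in the table, 34 had a mean of at least 1 FPKM, 22 were lower and 9 were listed at 0 in all livers.

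The spread between animals was compared with that of other genes as a description. A fold range of at least 2 over the livers was found for 4 of the 10 genes (Casp4, Aim2, Il1b and Pycard), beside 20.7% of 14015 genes above 0 in all livers. Without liver 2 the range was 1.92-fold for Aim2 and 1.62-fold for Pycard, which left 2 of the 10 genes (Casp4 and Il1b) beside 15.4% of genes. Of the 4 genes with a mean below 1 FPKM, 3 had such a range, beside 59.3% of 2949 genes with a mean from 0.1 to 1 FPKM. Of the 6 genes whose mean reached 1 FPKM, 1 did (Casp4), beside 6.39% of 10525 genes. The log2(FPKM + 1) scale compresses the differences of low genes. On it the SD was 0.06 for Gsdmd, 0.22 for Il18, Il18bp and Casp1, 0.23 for Nlrp6 and 0.39 for Casp4. Its median over these 6 genes was 0.22, and over all 10541 genes that reach this mean it was 0.16.

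**Figure D3:**
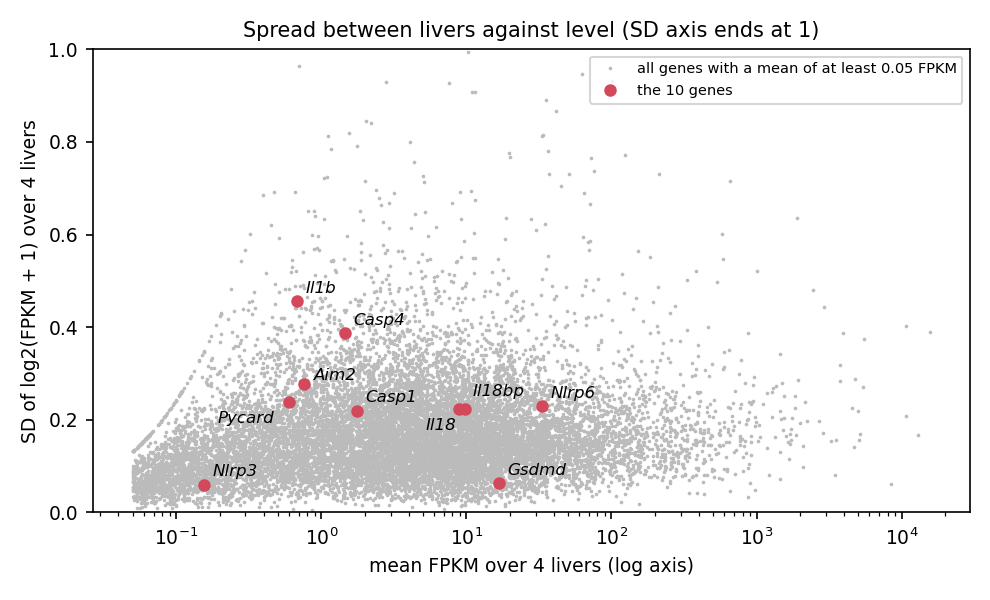
SD of log2(FPKM + 1) over 4 livers against mean FPKM on a log axis; grey points are all genes whose mean reached 0.05 FPKM and red points the 10 genes. Il1b (0.46) and Casp4 (0.39) have the largest SD among the 10 genes, and Gsdmd (0.06) lies low for its level.

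The liver with the highest value differed among the 10 genes. Il1b, Aim2 and Il18bp had their highest value in liver 2 (3 of 10, beside 24.0% of genes above 0 in all livers), and Nlrp6, Pycard and Nlrp3 had their lowest value there (3 of 10, beside 28.1%). Casp1, Casp4 and Gsdmd were highest in liver 1 (3 of 10, beside 19.7%) and lowest in liver 4 (3 of 10, beside 21.8%). Il1b, Il18 and Il18bp were lowest in liver 1 (3 of 10, beside 20.7%). Some of these ranks were near ties. The next liver was about 1.02-fold away for Gsdmd at both ends and for Casp1 in liver 4, and 1.01-fold for Il18 in liver 1. Nlrp6, Pycard and Nlrp3 were highest in liver 3 (3 of 10, beside 26.4%), Aim2 was lowest there (1 of 10, beside 29.4%), and Il18 was highest in liver 4 (1 of 10, beside 29.9%).

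**Figure D4:**
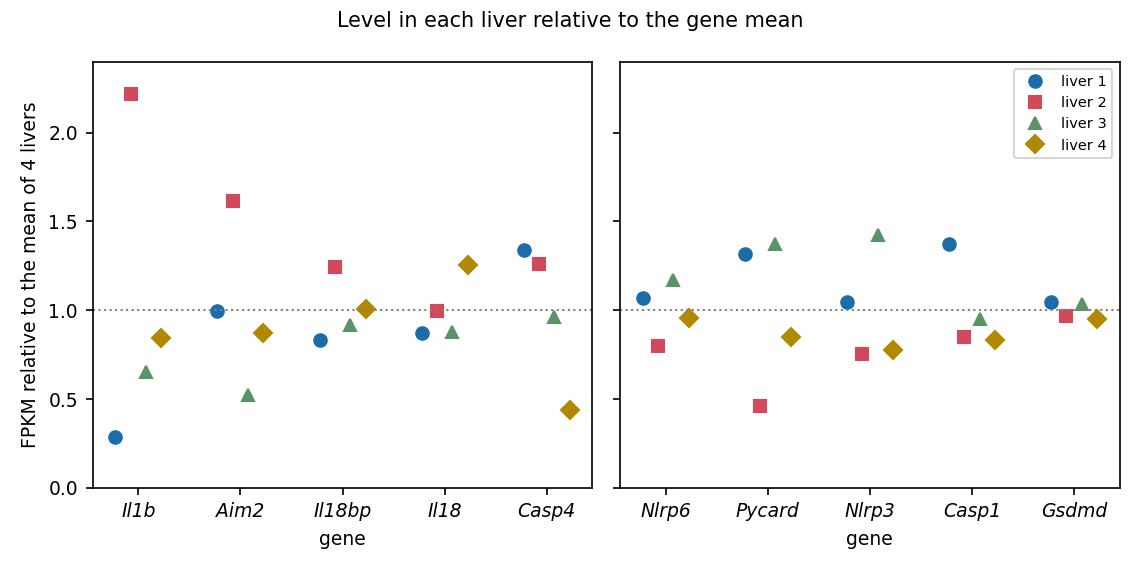
FPKM of each gene in each liver divided by its mean over 4 livers, on a linear axis that starts at 0; the dotted line is the mean. Il1b in liver 2 reaches 2.22 times its mean and in liver 1 lies at 0.288, while all Gsdmd values lie between 0.952 and 1.05.

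Genes with the most similar pattern were found for the 6 genes whose mean reached 1 FPKM, as those with the smallest root mean square difference between deviations of log2(FPKM + 1) over the 4 livers. The nearest were Capn10, Hsf1 and Gtf2f1 for Nlrp6 (differences from 0.0155 to 0.0212), and Agbl3, Mylip and Hey1 for Il18bp (0.0162 to 0.0201). Ly6a and Pias2 were among the 3 nearest to Il18 (0.0158 and 0.0176). For Gsdmd the nearest were Luzp1, Cecr2 and Rnf216 (0.00623 to 0.00913). For Casp1 they were Fra10ac1, A730008H23Rik and Krit1 (0.0260 to 0.0264), and for Casp4 Tgfbr3l, 2900076A07Rik and Col6a3 (0.0127 to 0.0526). None of these 6 genes was among the 3 nearest to another of them. Aim2, Il1b, Pycard and Nlrp3 were outside the search, because only genes whose mean reached 1 FPKM could be listed. The measure rests on 4 values a gene, over 10541 genes compared.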

How the data were processed

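Liver RNA of 4 mice, 1 library each, was sequenced after poly(A) enrichment, per the labels' protocols. The submitters' processing notes name FastQC 0.10.1, Trim Galore 0.6.3, cutadapt, STAR 2.7.6a and Cufflinks 2.2.1 and the build mm10; options, annotation and strand setting are not given in the sources used here. The deposited values were taken as FPKM made by the authors, from the Cufflinks identifiers and the values themselves; columns were matched through sample descriptions, and 0 were left unmatched. Starts had 1 added, and each of the 10 spans overlapped that of its RefSeq gene (GRCm38.p6).

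An FPKM table holds no counts, so no count test was possible, depth was approximated from GENCODE vM21 lengths less 200 bases (17.9 to 20.6 M when 100 or 300 were subtracted), and fragment numbers are approximate. With 1 group, no comparison was tested; the only test was Dixon's, for a liver apart from the others. Log values used a pseudocount of 1. Calculations used Python 3.11.15 and pandas 2.3.3. The calculations were tested on simulated data. The members and lists were chosen with earlier results of these data known. Named genes are the 10 members, genes of the lists that have a mean of at least 1 FPKM or define a role, and the 3 nearest in pattern. A few genes that this rule names or that stood apart in 1 liver are not reported here. Ratios of Nlrp6 to Nlrp3, Casp1 to Pycard, and Il1rn and Il1a to Il1b were added after the values were seen. Alternatives were the pseudocount, the filter, the scaling and leaving out each liver.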

Additional observations from a re-analysis of the deposited data

Results flagged for a closer look

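The highest or lowest liver stood apart from the other 3 by Dixon's ratio (above its 95% critical value for 4 samples) in 12 of 189 quantities examined, where chance marks about 1 in 20. The quantities were the 10 genes, the ratios, every gene of the lists above 0 in at least 2 livers, and the summed markers.

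The ratio of Gsdmd to Casp1 was 7.20 in liver 1 and between 10.2 and 10.8 in the others (Dixon's ratio 0.841). The ratio of Il1rn to Il1b was 16.9 in liver 1 and between 1.49 and 3.59 in the others (0.863), with about 4 fragments behind the Il1b value of liver 1.

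Liver 2 stood apart in 6 acute phase genes. Dixon's ratio was 0.955 for Saa1, 0.969 for Saa2, 0.911 for Lcn2, 0.938 for Orm1, 0.857 for Orm2 and 0.834 for Itih4. Orm1, which encodes an acid glycoprotein, had 1631 FPKM in liver 2, where the other livers had 758 to 812 FPKM.

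Among cell type markers, liver 4 was apart in the hepatocyte gene Apoa1, at 15343 FPKM (0.884), and in the dendritic cell gene Xcr1, at 0.331 FPKM (0.859). Liver 3 was apart in Ly6c2, a monocyte gene, at 1.13 FPKM beside 2.56 to 2.68 FPKM (0.921).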

How the results depend on the processing

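The means of the 10 genes moved by less than their SD over the livers under median-ratio and upper-quartile scaling. Leaving out 1 of 4 livers cannot move a mean, or a mean ratio, by its SD whatever the values, so that outcome was fixed in advance. Under both scalings and without each liver, 6 of the 10 had a mean of at least 1 FPKM. Of 148 alternative values for 24 results, 142 stayed within 1 SD or, for counts, within 1.5 times, and 6 did not. The 142 include the means and mean ratios without 1 liver, which could not move that far. A pseudocount of 5 lowered the median SD of the 6 genes from 0.22 to 0.15 (0.11 over all genes). The median deviation of these genes from their means was 0.087 in liver 1, and -0.051 with a minimum mean of 5 FPKM, which leaves 4 genes. In liver 4 it was -0.06, and -0.16 under upper-quartile scaling, which itself moves libraries by -0.06 to 0.11 on the log2 scale. In liver 3 it was -0.014. With a minimum of 5 FPKM, 17 of the pathway genes passed in place of 34.

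When each liver was left out in turn, the median SD ranged from 0.19 to 0.25, the median deviation from 0.03 to 0.13 in liver 1, from -0.04 to -0.0017 in liver 2, from -0.068 to 0.069 in liver 3 (the highest without liver 1) and from -0.11 to -0.03 in liver 4, and the number of neighbour pairs without overlap from 3 to 5. The number of the 10 genes with a fold range of at least 2, an alternative chosen after seeing the data, ranged from 2 (without liver 2) to 4. Without liver 2 Pycard stood above Aim2 and Il1b, and without liver 1 Il1b stood above Aim2. The mean ratio of Casp4 to Casp1 ranged from 0.685 to 0.946, of Il18bp to Il18 from 1.03 to 1.19, of Il18 to Il1b from 14.2 to 25.3, of Pycard to Nlrp3 from 3.38 to 4.20 and of Gsdmd to Casp1 from 9.39 to 10.6. The number of pathway genes passing ranged from 34 to 35. No paired analysis was possible because the livers form 1 group. Depth limits Nlrp3, Pycard, Aim2, Il1b and Casp4, whose values rest on few fragments.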
